A study of Mus musculus with 16 samples.

Results

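Shox2, Lbx1, Foxd1, Gsc, Prdm6 and Barx1 are developmental transcription factors that mouse neural stem cell cultures of 1 labelled batch expressed and cultures of the other batch nearly lacked. The 6 genes, of 57132 in the count files, were chosen by their levels in CPM, counts scaled to a common library size, near 0 in batch 1 and clearly above it in batch 2, with no numeric threshold. The difference between the batches in these 6 genes is therefore given as a description, without a test.

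The series set mouse neural stem cells in the condition labelled GF and given a guide RNA (labelled gRNA; the series title names the tool TAPIR) against cells labelled control, whose handling the labels do not describe. In batch 2 and in batch 1 alike, stranded RNA-seq of total RNA after removal of ribosomal RNA was run on 3 gRNA libraries and 3 control libraries. The labels give no strain, age, brain region, target of the guide RNA or meaning of a batch, so cell source, culture and sequencing cannot be told apart as sources of a difference between batches. Whether the 3 libraries of a group stem from separate cultures is not labelled, and p-values measure the spread between these libraries, which may be technical. Ribosome footprints were deposited for 4 further libraries, but that table names transcripts only and no pairing of transcripts with genes was at hand, so footprints on the 6 genes were not analysed here.

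Transcription factors of this kind tell embryonic tissues where they lie and what to become, and most of them carry a homeodomain, a DNA-binding fold shared by the Hox genes. Shox2 acts in the proximal limb, the palate and the pacemaker region of the heart, Lbx1 in migrating muscle precursors and dorsal horn interneurons of the spinal cord, and Gsc (goosecoid) in the gastrula organizer and later in the face. Barx1 acts in tooth and stomach mesenchyme. Foxd1, a forkhead factor, acts in kidney stroma and in part of the retina, and Prdm6, a PR domain protein, represses genes in smooth muscle. Shox2, Lbx1 and Foxd1 have known sites in the nervous system too, so that "non-neural" describes the set only loosely. In many tissues such genes are held silent by Polycomb proteins over CpG-rich promoters.

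Promoter sequences were at hand for 4 of the 6 genes, not for Lbx1 and Prdm6. These 4 promoters are shown because CpG content is a feature that the choice of genes did not use. They are the 250 bases before the annotated start, from RefSeq on GRCm38.p6, written 5′ to 3′ on the gene's strand with CpG dinucleotides in capitals. The regions are chr3:66981772-66982021 (minus strand) for Shox2, chr13:98353995-98354244 (plus) for Foxd1, chr12:104473237-104473486 (minus) for Gsc and chr13:48662786-48663035 (plus) for Barx1.
Shox2: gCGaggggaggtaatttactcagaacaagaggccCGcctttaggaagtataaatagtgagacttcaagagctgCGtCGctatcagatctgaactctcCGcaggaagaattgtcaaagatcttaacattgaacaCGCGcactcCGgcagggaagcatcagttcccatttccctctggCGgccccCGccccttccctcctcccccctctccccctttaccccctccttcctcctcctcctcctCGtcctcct
Foxd1: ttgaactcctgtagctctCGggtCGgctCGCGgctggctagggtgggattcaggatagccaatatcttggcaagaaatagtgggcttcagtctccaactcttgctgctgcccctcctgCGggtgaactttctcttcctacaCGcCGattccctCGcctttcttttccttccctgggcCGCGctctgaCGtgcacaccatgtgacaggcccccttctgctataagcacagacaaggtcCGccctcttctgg
Gsc: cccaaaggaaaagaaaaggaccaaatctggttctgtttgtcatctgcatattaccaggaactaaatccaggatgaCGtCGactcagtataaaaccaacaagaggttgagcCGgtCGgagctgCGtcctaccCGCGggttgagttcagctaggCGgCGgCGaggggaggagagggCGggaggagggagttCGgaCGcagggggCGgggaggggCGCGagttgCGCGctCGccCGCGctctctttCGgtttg
Barx1: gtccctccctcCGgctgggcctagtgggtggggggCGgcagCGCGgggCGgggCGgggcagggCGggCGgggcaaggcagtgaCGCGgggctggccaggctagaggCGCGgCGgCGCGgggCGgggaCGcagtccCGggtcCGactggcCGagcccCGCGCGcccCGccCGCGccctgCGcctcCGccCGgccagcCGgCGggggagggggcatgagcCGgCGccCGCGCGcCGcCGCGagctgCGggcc

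The Barx1 promoter held 40 CpG dinucleotides and the Gsc promoter 22, while the Foxd1 and Shox2 promoters held 12 and 11. Over 27025 promoters, 1 per gene, the median was 6 and the upper quartile 16. At least as many CpGs as Barx1 were found in 1.29% of promoters, and at least as many as Gsc in 14.6%. For Foxd1 and Shox2 the shares were 33.8% and 36%, so these promoters lay above the median but under the upper quartile. TATAAA, searched on both strands as the core of a TATA box, was present before Shox2 and Gsc and in 13% of all promoters. It began at position −203 from the annotated start for Shox2 and −164 for Gsc. CCAAT was present before Foxd1 and in 34.5% of all promoters. TAATTA, a pair of homeodomain cores, and CACGTG, a palindromic E-box, were in 4.9% and 6.05% of all promoters and in none of these 4 windows. Such matches describe the letters in the windows and show no binding.

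**Figure D1:**
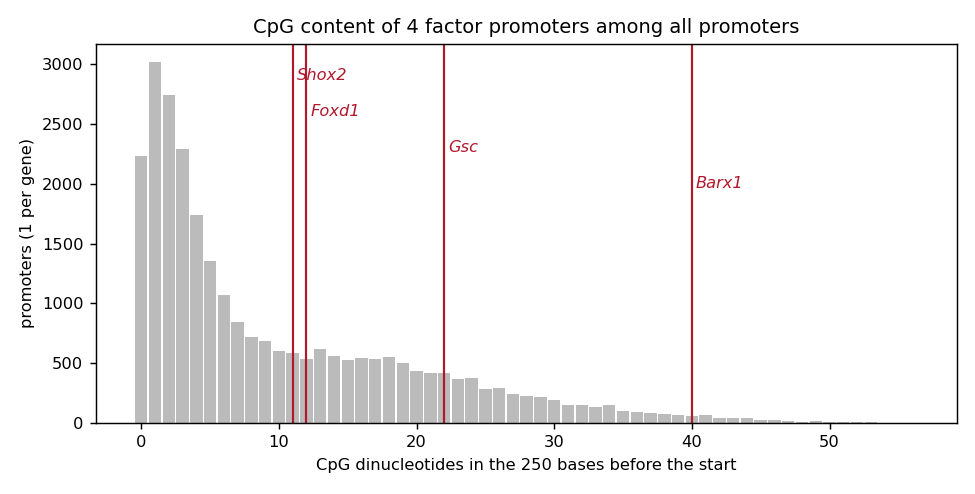
Number of CpG dinucleotides (x axis) in the 250 bases before the start, with the number of promoters (y axis, 1 promoter per gene, grey bars) and a red line for each of 4 factors. Barx1 lies at 40 and Gsc at 22, above the upper quartile of 16, and Foxd1 and Shox2 lie at 12 and 11.

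Depth ran between 8414028 and 19454390 counts in genes per library (median 14918917), and among 66 library pairs 0 were identical. The first principal component separated the batches and held 87% of the variance. Across genes, log2 CPM correlated at 0.82 to 0.843 for a pair of libraries from both batches and at 0.971 to 0.996 for a pair from the same batch. Markers of neural stem cells were expressed in both batches, some of them at a lower level in batch 2. Sox2, which maintains the progenitor state, lay between 130.5 and 191 CPM (median 142) in batch 2 and between 135 and 175 CPM (median 146) in batch 1. Nes, the filament of neural progenitors, had medians of 561 CPM in batch 2 and 554 CPM in batch 1, and Pax6, a progenitor homeodomain factor, 79.3 and 72.0 CPM. Sox1 and Fabp7, also neural stem cell markers, were called lower in batch 2. Their medians were 86.2 and 86.7 CPM in batch 2 and 125 and 103 CPM in batch 1.

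Together the 6 genes had 8116 counts in batch 2 and 9 counts in batch 1, out of 88859697 and 87559030 counts in genes. In batch 1, 28 of the 36 combinations of gene and library were at 0, and a library at 0 allows a level of up to 3 counts, which was 0.158 to 0.37 CPM here. Of the 9 counts, 8 were in gRNA libraries and 1 in a control library, and library 1 of the gRNA group held 4. Intervals and floors here cover counting error only, since reads need not be independent molecules. In bulk RNA, more cells expressing a factor and more of its RNA per cell cannot be told apart.

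A further 104 genes were below 0.1 CPM on average in batch 1 and at 1 CPM or more in batch 2, limits that fix their levels as the choice of the 6 factors fixes theirs. Their summed counts in batch 1 were 62, 78 and 77 in gRNA libraries and 38, 23 and 95 in control libraries, against 7111 to 9857 in the libraries of batch 2. With the 6 factors these make 110 genes, and 535 genes showed the opposite pattern, below 0.1 CPM in batch 2 and at 1 CPM or more in batch 1.

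**Figure D2:**
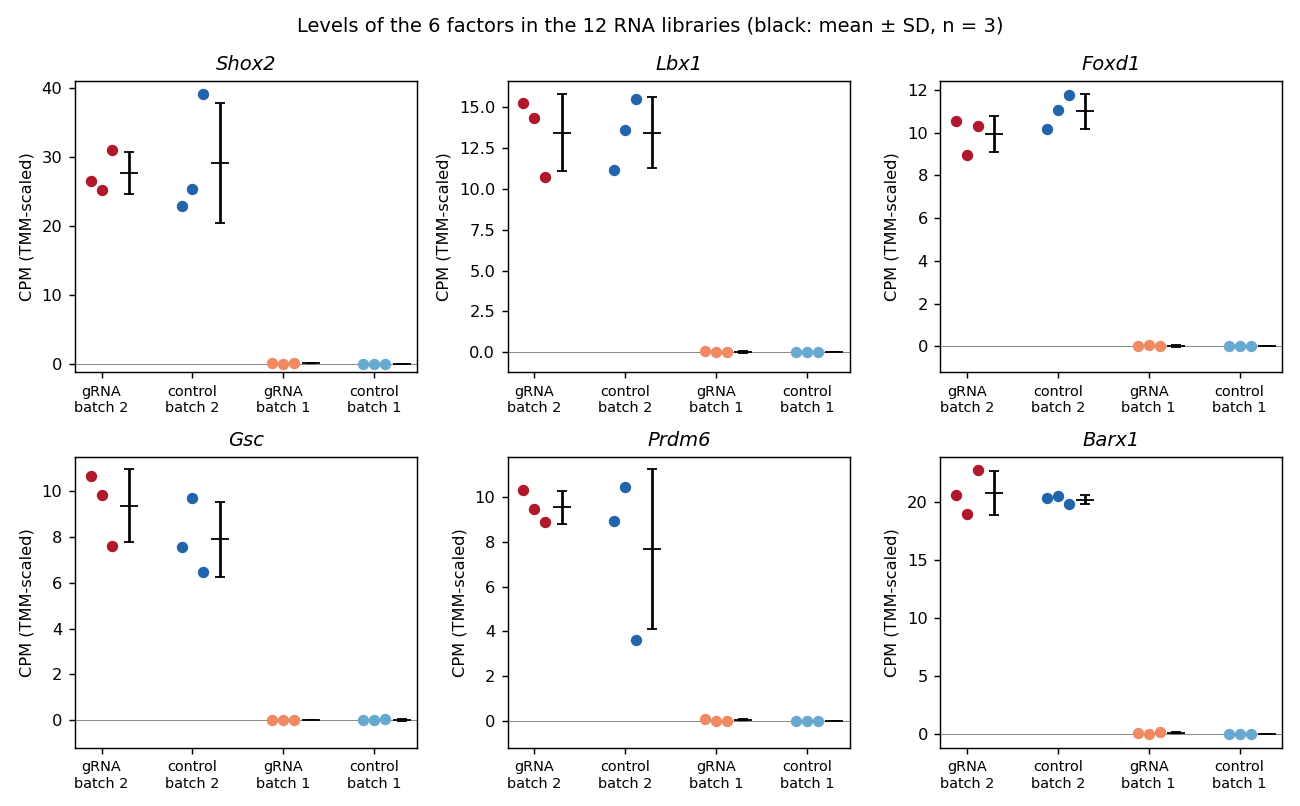
CPM on TMM-scaled library sizes (y axis) of the 6 factors in gRNA and control libraries of batch 2 and batch 1 (x axis). Points are libraries and black marks the mean ± SD (n = 3); every batch 2 library lies at 3.64 CPM or more and every batch 1 library at 0.12 CPM or less.

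Shox2 (ENSMUSG00000027833.17), a paired-class homeodomain factor, had 461, 406 and 434 counts in the gRNA libraries and 300, 400 and 537 in the control libraries of batch 2. These were 26.6, 25.3 and 31.1 CPM in gRNA libraries and 22.9, 25.3 and 39.1 CPM in control libraries. Control library 3 stood above the other 5, and the groups overlapped. In batch 1, gRNA libraries 1 and 3 had 1 count each and the other 4 libraries had 0. The level over all batch 2 libraries was 1220-fold that over batch 1, with a wide 95% exact counting interval of 337 to 10080, because the lower level rests on 2 counts.

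Lbx1 (ENSMUSG00000025216.10), the mouse homologue of the fly ladybird homeodomain factors, was at 15.2, 14.3 and 10.7 CPM in gRNA libraries and 11.2, 13.6 and 15.5 CPM in control libraries of batch 2. The lowest and the second highest value both belonged to gRNA libraries, so that the groups overlapped over nearly their whole range. A single count, in gRNA library 1, was found in batch 1, against 1218 counts in batch 2, a 1171-fold ratio (interval 210 to 46280).

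Gsc (ENSMUSG00000021095.6), a homeodomain repressor, was at 10.7, 9.83 and 7.59 CPM in gRNA libraries and 7.56, 9.69 and 6.47 CPM in control libraries of batch 2. The highest pair of values were gRNA libraries and the lowest pair control libraries, with overlap between the groups. In batch 1 the gRNA libraries had 0 counts and the control libraries 1, in library 3. The ratio of batch 2 to batch 1 was 759 (interval 136 to 30030).

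Barx1 (ENSMUSG00000021381.5), a homeodomain factor, was the steadiest of the set. It was at 20.6, 19.0 and 22.8 CPM in gRNA libraries and 20.3, 20.5 and 19.8 CPM in control libraries of batch 2. The control values lay within the range of the gRNA values. Its coefficient of variation over the 6 batch 2 libraries was 6.18%, close to the 5.71% that counting alone gives at its mean count. In batch 1, gRNA libraries 1 and 3 had 1 and 2 counts and the control libraries 0, and the ratio of batch 2 to batch 1 was 590 (interval 202 to 2865).

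Foxd1 (ENSMUSG00000078302.6), the forkhead factor, was at 10.6, 8.96 and 10.3 CPM in gRNA libraries and 10.2, 11.1 and 11.8 CPM in control libraries of batch 2. The groups overlapped, and the lowest value was a gRNA library and the highest a control library. Its coefficient of variation was 9.08%, against 7.99% from counting alone. Batch 1 held 1 count, in gRNA library 2, and the ratio of batch 2 to batch 1 was 905 (interval 162 to 35770).

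Prdm6 (ENSMUSG00000069378.15), the PR domain factor, was at 10.3, 9.46 and 8.88 CPM in gRNA libraries and 8.93, 10.5 and 3.64 CPM in control libraries of batch 2. Control library 3, with 50 counts, stood below the other 5, which had 117 to 179. The mean was 9.55 ± 0.73 CPM in gRNA libraries and 7.67 ± 3.58 CPM in control libraries (SD, n = 3 each). It gave Prdm6 a coefficient of variation of 29.4%, against 8.73% from counting alone and a median of 13.8% over all 14479 genes at 1 CPM or more in batch 2. Batch 1 held 1 count, in gRNA library 1, and the ratio of batch 2 to batch 1 was 757 (interval 135 to 29920).

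Control library 3 of batch 2 thus had the highest values of Shox2, Lbx1 and Foxd1 and the lowest of Prdm6 and Gsc. Other genes stood apart there as well. Summed markers of the oligodendrocyte lineage were at 603 CPM in it and 311 to 368 CPM in the other batch 2 libraries. Astrocyte markers were at 792 CPM against 458 to 658 CPM, and neural stem and progenitor genes at 3907 CPM against 3037 to 3310 CPM. Neural crest genes were at 517 CPM against 317 to 379 CPM, and neuronal genes at 832 CPM against 665 to 755 CPM. Sums of forebrain, organizer, jaw, interneuron, Polycomb and blood genes were also highest there. Those of Hox genes, mesenchyme factors, fibroblast markers, epithelium genes and relatives of the 6 factors lay within the range of the other libraries. The part of these genes in the levels of the 6 factors was not tested. Skeletal and smooth muscle markers were lowest in this library, at 101 CPM against 120 to 132 CPM.

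**Figure D3:**
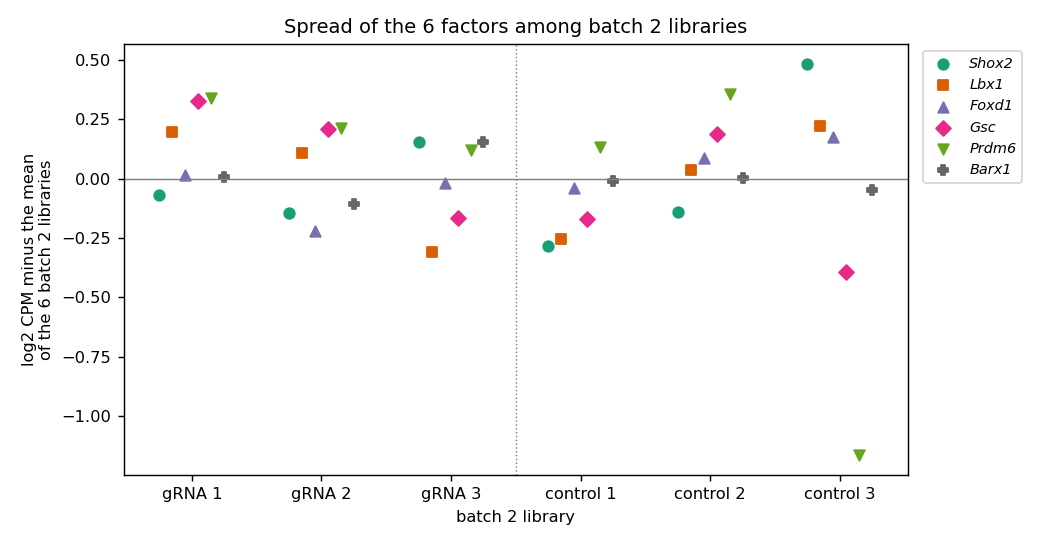
log2 CPM of each factor minus its mean over the 6 batch 2 libraries (y axis), by library (x axis, gRNA libraries left of the dotted line and control libraries right of it). Points spread most in control library 3, where Prdm6 (3.64 CPM) is lowest and Shox2 (39.1 CPM) highest, and Barx1 varies least.

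For each factor, the genes that followed it most closely over the 6 batch 2 libraries were taken by Pearson correlation of log2 CPM among 11719 protein-coding genes with a mean of 1 CPM or more in batch 2, predicted genes and clones left out. With 6 libraries and so many genes, high values arise through the search itself. Prdm6 was followed by Ddx51 (r = 0.999) and Eefsec (r = 0.997), and 13.2% of the genes had an r over 0.9 with it. The log2 CPM of Prdm6 lay at −1.16 from its mean in control library 3 and at 0.12 to 0.36 in the others. Its r therefore rests largely on that library. Shox2 was followed by Gdpd2 (0.998) and Apba1 (0.996), with 7.63% of genes over 0.9. The other pairs were Mov10 (0.998) and Zc3h7a (0.994) for Lbx1, Zfp1 (0.992) and Cep57l1 (0.991) for Gsc, Rhbdl2 (0.991) and Adamts5 (0.989) for Barx1, and Tox (0.96) and Dusp11 (0.958) for Foxd1. For these 4 factors, 0.154% to 2.12% of genes were over 0.9.

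Whether the treatment moved the 6 factors was tested within batch 2, a contrast that the choice of genes did not use. None of the 6 passed. Gsc had a log2 fold change of 0.25 for gRNA against control (SE 0.23, 95% interval −0.29 to 0.78) and Prdm6 of 0.32 (SE 0.36, interval −0.52 to 1.15). Barx1 was at 0.047 (SE 0.14, interval −0.29 to 0.38), Lbx1 at 0.006 (SE 0.21, interval −0.47 to 0.48), Shox2 at −0.067 (SE 0.22, interval −0.58 to 0.44) and Foxd1 at −0.14 (SE 0.17, interval −0.54 to 0.26). For 5 of the 6 the interval left out a change of 2-fold or more in either direction, and for Prdm6 it reached 2.22-fold higher. Adjusted p-values from edgeR's quasi-likelihood test with Benjamini-Hochberg adjustment over 15647 genes were 0.998 to 0.999 (n = 3 per group), and 0.83 to 1 over the alternatives.

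The background share called in this comparison was 0% of the genes, with 116 at an unadjusted p under 0.05, and DESeq2 and limma-voom also called 0, with 119 and 104. Prdm6 rested on a single library: without control library 3 it was at −0.022 and Shox2 at 0.20. Without control library 2, Gsc was at 0.43 and Prdm6 at 0.62. In batch 1 none of the 6 had enough counts to enter the test, in which edgeR called 0% of 16988 genes (147 at an unadjusted p under 0.05, and 57 and 157 by DESeq2 and limma-voom, which called 0 too).

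**Figure D4:**
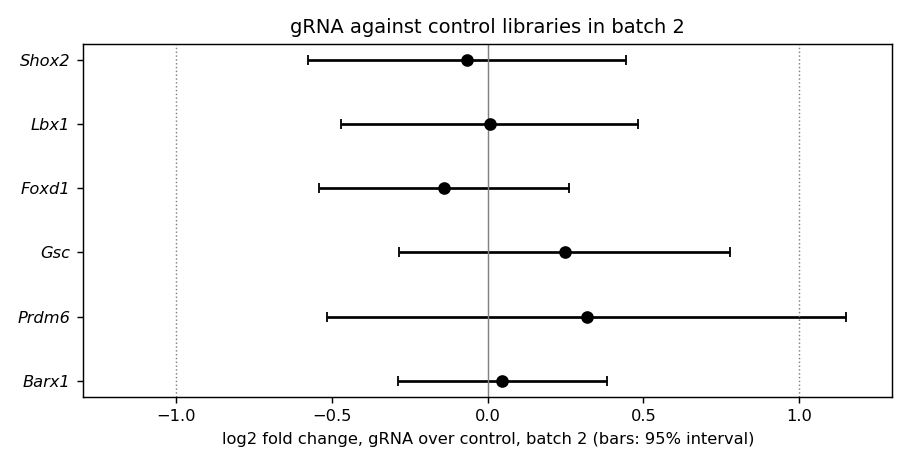
log2 fold change of each factor, gRNA over control libraries of batch 2 (x axis; points, with 95% intervals from edgeR, n = 3 per group); dotted lines mark 2-fold changes. Every interval spans 0, and that of Prdm6, from −0.52 to 1.15, is the widest.

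Of the nearest genes beside the 6 factors, Tlx1 alone was at 0 in all batch 1 libraries and above 1 CPM in all batch 2 libraries. Neighbours were the nearest protein-coding gene on either side in the RefSeq annotation of GRCm38.p6, of which only the order was used, and were tested between batches with all 12 libraries. Background shares in that comparison were 28.4% of 18279 genes called higher and 33.4% called lower in batch 2. Tlx1, a homeodomain factor of spleen and dorsal spinal cord beside Lbx1 on chromosome 19, was at 11.4 to 14.2 CPM in batch 2 and had 0 counts in all batch 1 libraries, so that it was at least 373-fold higher in batch 2 (against a floor of 3 counts over the batch). Btrc, a ubiquitin ligase subunit on the other side of Lbx1, had medians of 76.5 CPM in batch 2 and 83.9 CPM in batch 1 and did not pass (log2 fold change −0.13, SE 0.07, edgeR adjusted p = 0.134).

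Next to Prdm6 on chromosome 18, Ppic, a peptidyl-prolyl isomerase, ran the opposite way, with medians of 1.04 CPM in batch 2 and 68.9 CPM in batch 1 (log2 fold change −5.99, SE 0.19, edgeR adjusted p = 7.4e-12). Cep120, a centriole protein on the other side, was at −0.42 (SE 0.09). Beside Gsc on chromosome 12, Serpina3n, a protease inhibitor, rose by 3.42 (SE 0.53), with medians of 4.08 CPM in batch 2 and 0.376 CPM in batch 1, while Dicer1, the microRNA-processing nuclease, was at 0.04 (SE 0.07) and did not pass. On chromosome 13, Phf2 and Ptpdc1 beside Barx1 were at 0.29 (SE 0.06) and −1.11 (SE 0.14) and both passed. Of the genes beside Foxd1, Btf3 was at −0.14 (SE 0.15) and did not pass, and Tmem174 had 0 counts in batch 2 and 1 in batch 1.

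Shox2 overlaps Rsrc1, a splicing factor gene, on chromosome 3, and the sources used here do not give the strand setting of the counting, so reads of the overlap cannot be told apart. In batch 1, Rsrc1 was at 44.7 to 60.9 CPM while Shox2 had 2 counts in all. Whether Rsrc1 reads entered the Shox2 counts of batch 2 was not tested. Rsrc1 itself had a median of 112 CPM in batch 2 and 54.5 CPM in batch 1 (log2 fold change 0.99, SE 0.06, edgeR adjusted p = 5.22e-09). Of the outer neighbours, Mlf1 was at 1.42 (SE 0.14), and Veph1 had 8 counts in batch 2 and 4 in batch 1. The other 5 factors overlap no gene in that annotation.

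Of 19 close relatives of the 6 factors, 12 had enough counts to be tested, and 5 were higher and 2 lower in batch 2 (median log2 fold change 0.011, against −0.033 over all genes tested). Foxd2, another forkhead factor, was at a median of 4.45 CPM in batch 2 and 0.118 CPM in batch 1 (log2 fold change 4.93, SE 0.33, edgeR adjusted p = 1.53e-08). Barx2, the closest relative of Barx1, rose by 1.98 (SE 0.43) and Prdm8 by 0.57 (SE 0.22). Prdm16, a PR domain factor of neural stem cells and brown fat, fell by 2.73 (SE 0.21), with medians of 1.86 CPM in batch 2 and 14.2 CPM in batch 1, and Prdm4 fell by 0.34 (SE 0.08). Gsc2 had 2 counts in batch 2 and 1 in batch 1, Foxd3 0 and 1, and Lbx2 51 and 2.

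Other mesenchyme and jaw factors were gained in batch 2 next to some that were lost. Of 35 limb, trunk and craniofacial mesenchyme factors, 18 were tested, 12 were higher and 5 lower in batch 2, with a median log2 fold change of 5.13 as fitted and 4.72 with the gene at 0 counts set to its bound. A gene that enters this test through 1 batch alone has to differ, so the counts describe the lists. The summed level of these 35 mesenchyme factors was lower in batch 2, at 392 to 450 CPM against 578 to 725 CPM in batch 1. Osr2, a palate and joint factor, had a log2 fold change between batches of 7.57 (SE 0.39), and Foxl2, a factor of ovary and eyelid, was at 7.77 (SE 0.49). These sizes rest on 4 counts each in batch 1, against 964 for Osr2 and 1109 for Foxl2 in batch 2. In contrast, Prrx1 and Prrx2, paired-class mesenchyme factors, fell by 2.78 (SE 0.14) and fell by 3.96 (SE 0.17). The median of Prrx1 was 43.5 CPM in batch 2 and 294 CPM in batch 1. Scx, a tendon factor, fell by 1.33 (SE 0.21).

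Of 20 pharyngeal arch and jaw genes, 11 were tested, 7 were higher and 1 lower in batch 2. Dlx4 had 535 counts in batch 2 and 0 in batch 1, at least 171-fold higher. Dlx6, with 68 counts in batch 2 and 5 in batch 1, was at 3.48 (SE 0.44). Mef2c fell by 1.28 (SE 0.08). Edn1, the ligand that patterns the lower jaw, had 1 count in batch 2 and 23 in batch 1, and Hand2, which acts downstream of it, 4 and 0. Of 30 dorsal spinal cord and hindbrain interneuron factors, where Lbx1 acts, 13 were tested, 6 were higher and 6 lower. Besides Tlx1, Lhx1 was gained, with 566 counts in batch 2 and 0 in batch 1 (at least 181-fold higher), and Pax7, a dorsal neural tube factor, was at 3.91 (SE 0.42). Nkx2-2, a factor of the ventral neural tube, fell by 8.53 (SE 0.47), with medians of 0.0317 CPM in batch 2 and 25.5 CPM in batch 1. Nkx6-2 had 0 counts in batch 2 and 239 in batch 1, and Gsx1 1 and 181.

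All 10 Hox genes tested, of 39, belong to the HoxA cluster, and all 10 were higher in batch 2, with a median log2 fold change of 8.33 as fitted and 7.82 with the 3 at 0 counts set to their bounds. The summed level of the Hox genes was 174 to 190 CPM in batch 2 and 0 to 1.60 CPM in batch 1. Hoxa7 had 4376 counts in batch 2 and 0 in batch 1, at least 1402-fold higher, Hoxa6 657 and 0, and Hoxa5 4565 and 1. Of the Hox genes not tested, Hoxd4, named after its value was seen, had 46 counts in batch 2 and 0 in batch 1, and the others had at most 5 in either batch. Of 19 forebrain regional factors, 13 were tested, 4 were higher and 7 lower. Among the falls were Emx2 at −1.5 (SE 0.07) and Otx1 at −1.14 (SE 0.12), and the largest rises Nr2f2 at 4.12 (SE 0.16), Dlx1 at 2.85 (SE 0.30) and Rax, which had 55 counts in batch 2 and 3 in batch 1.

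Markers of the tissues in which these factors normally act were present only in part. Of all 57132 genes in the count files, 14479 were at a mean of 1 CPM or more in batch 2. At this level were 7 of 17 fibroblast and mesenchyme markers, 4 of 15 muscle genes and 2 of 14 epithelium and endoderm genes. In batch 1 these markers numbered 8, 5 and 0 at this level. Their part in the levels of the 6 factors was not tested. Of 17 fibroblast and mesenchyme markers, 11 were tested, 5 were higher and 4 lower in batch 2, and their summed level was 335 to 720 CPM in batch 2 and 309 to 465 CPM in batch 1. Among the defining collagens, Col3a1 had 0 counts in batch 2 and 14 in batch 1, and Col1a2 1 and 59. Dcn and Lum, matrix proteoglycans of fibroblasts, had 1 and 3 counts in batch 2 and 0 and 3 in batch 1. Col1a1 was at a median of 2.78 CPM in batch 2 and 1.87 CPM in batch 1 (log2 fold change 1.36, SE 0.53). Col6a2 and Col6a1 rose by 4.60 (SE 0.68) and 3.26 (SE 0.72), with Col6a1 between 7.73 and 106.5 CPM (median 10.9) in batch 2. Thy1, a surface glycoprotein of neurons and fibroblasts, fell by 9.15 (SE 0.57), and Loxl1, a matrix crosslinking enzyme, fell by 5.09 (SE 0.67). In batch 2 they had only 8 and 4 counts, against 4301 and 145 in batch 1.

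Of 15 muscle genes, 7 were tested, 2 were higher and 3 lower. Myf5 had 0 counts in both batches, Myog 3 in batch 2 and 0 in batch 1, and Myod1, which starts the skeletal muscle programme, 6 and 83. Acta2, smooth muscle actin, fell by 7.66 (SE 0.38), with medians of 0.545 CPM in batch 2 and 108 CPM in batch 1. Met, the receptor of migrating muscle precursors, fell by 4.41 (SE 0.52), while Smtn, a smooth muscle protein, rose by 0.70 (SE 0.10). Of 14 epithelium and endoderm genes, only Foxa1 and Gata6 were tested, and both were higher in batch 2. Foxa1 had 1404 counts in batch 2 and 0 in batch 1, at least 450-fold higher, and Gata6 116 and 3, while the epithelial genes Epcam, Cdh1 and Krt8 had 4, 7 and 17 counts in batch 2 and 24, 5 and 3 in batch 1.

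Of 16 neural crest genes, 8 were tested, 4 were higher and 3 lower. Tfap2a, a crest and ectoderm factor, was at a median of 18.2 CPM in batch 2 and 0.0654 CPM in batch 1 (log2 fold change 7.51, SE 0.26). Sox10, which defines migrating crest and glia, had 6 counts in batch 2 and 33 in batch 1, and Ngfr fell by 2.17 (SE 0.25). Erbb3 rose by 1.78 (SE 0.63), Zic1 fell by 0.65 (SE 0.06) and Mitf fell by 0.62 (SE 0.21). The ranges of Erbb3 overlapped, at 0.31 to 4.22 CPM (median 0.68) in batch 2 and 0.19 to 0.50 CPM in batch 1. Of 12 organizer and primitive streak genes, where Gsc acts first, 5 were tested, 2 were higher and 3 lower. Chrd, a BMP antagonist of the organizer, rose by 1.34 (SE 0.19), and T, the primitive streak factor, fell by 2.24 (SE 0.23). Eomes fell by 3.34 (SE 0.53) and Nog by 1.84 (SE 0.28).

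Of 17 neural stem and progenitor genes, all were tested, 1 was higher and 11 lower in batch 2, with a median log2 fold change of −0.38. Hes5, a Notch target, rose by 2.15 (SE 0.43), while Prom1 fell by 4.33 (SE 0.46) and Egfr fell by 0.72 (SE 0.11). Among 12 neuronal genes, 10 were tested, 1 was higher and 7 lower. Tubb3 rose by 2.34 (SE 0.21), while Gap43 fell by 5.58 (SE 0.27), Nefm fell by 5.54 (SE 0.52) and Snap25 fell by 5.03 (SE 0.36). Of 8 astrocyte genes, all tested, 2 were higher and 4 lower, with S100b at 1.69 (SE 0.24), Aldoc at 0.49 (SE 0.14), Aqp4 at −3.33 (SE 0.60), Slc1a2 at −3.2 (SE 0.42) and Aldh1l1 at −2.94 (SE 0.40). Of 9 oligodendrocyte lineage genes, 6 were tested, 5 were higher and 0 lower, with Pdgfra at 1.21 (SE 0.29) and Gpr17 at 2.37 (SE 0.78). Gpr17 was between 3.75 and 39.4 CPM (median 4.46) in batch 2. Those not tested were Sox10, with 6 counts in batch 2 and 33 in batch 1, Mog, with 29 and 29, and Mag, with 1 and 2. Of 10 genes of blood, endothelium and microglia, 4 were tested, 0 were higher and 3 lower (Csf1r, Tek and Pecam1), and their summed level was 4.31 to 7.64 CPM in batch 2 and 6.41 to 12.4 CPM in batch 1.

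Genes of the Polycomb and DNA methylation machinery, which write, read or remove silencing marks, were expressed in both batches. The marks themselves were not measured. Of 21 Polycomb and DNA methylation genes, all were tested, 8 were higher and 2 lower in batch 2 (median log2 fold change 0.089). Pcgf2, a Polycomb subunit, rose by 1.92 (SE 0.27), Dnmt3b, a DNA methyltransferase, by 1.11 (SE 0.13) and Cbx2, a Polycomb reader, by 0.77 (SE 0.09). Tet2, which oxidizes methylated cytosine, fell by 0.83 (SE 0.18) and Cbx7 by 0.40 (SE 0.15). The adjusted p-values of genes named as risen or fallen between batches lay under 0.05 in edgeR's quasi-likelihood test over 18279 genes (6 libraries per batch, treatment as a term).

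**Figure D5:**
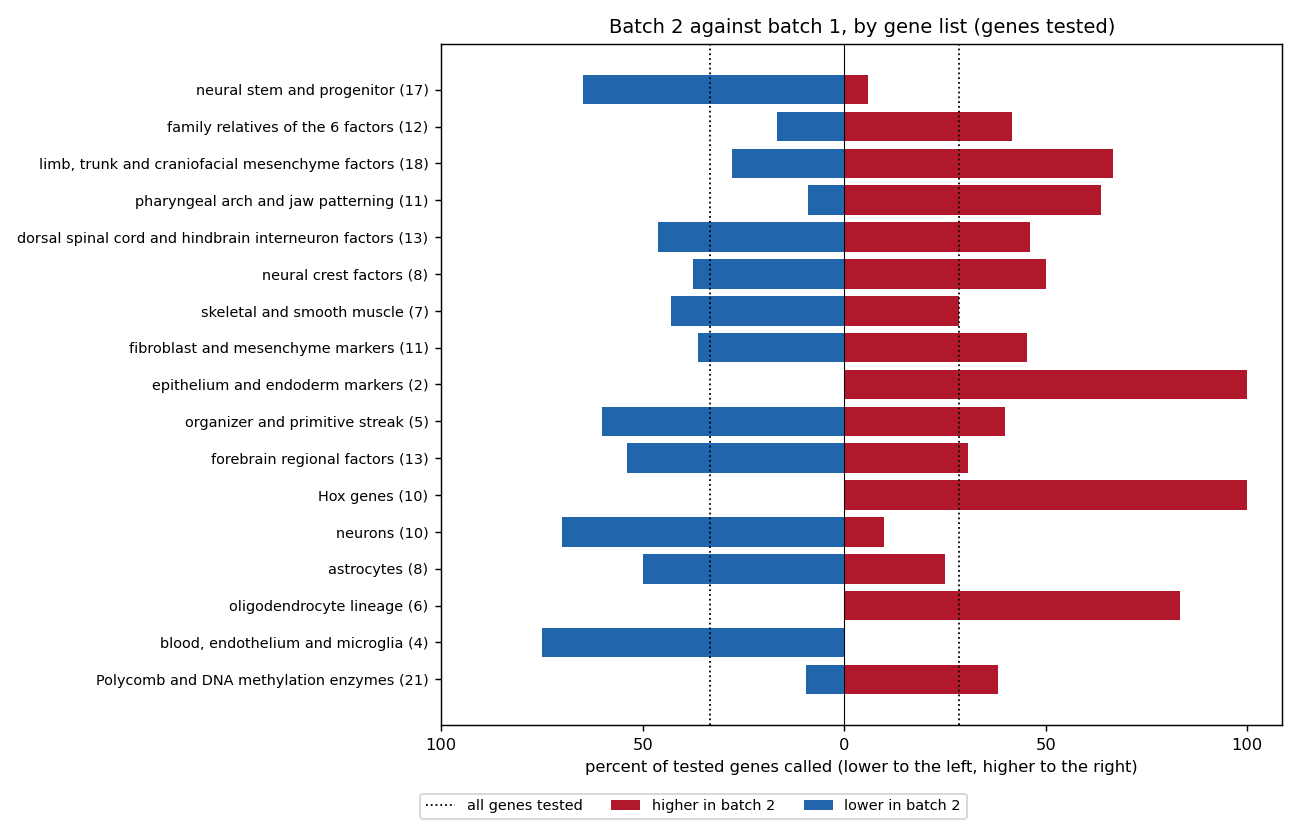
Percent of tested genes called higher (red, right) and lower (blue, left) in batch 2 against batch 1, for 17 gene lists without the 6 factors (rows, with the number of genes tested). Dotted lines mark all 18279 genes tested, 28.4% higher and 33.4% lower; all 10 tested Hox genes, of the HoxA cluster, are higher.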

How the data were processed

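The authors deposited raw counts for each Ensembl gene, with a file for every RNA library. The submitters' processing notes name Trimmomatic, STAR, SAMtools, HTSeq and GRCm39, and also UMI-tools 1.1.6, cutadapt 5.2 and STAR 2.7.10b, without saying for which data; annotation and strand setting were not found in the labels. HTSeq's summary lines entered neither library sizes nor tests. Reads outside genes were 8.83% to 12.7% in batch 2 libraries against 18.9% to 25.1% in batch 1 libraries, ambiguous ones 3.22% to 4.06%, multiply aligned ones 1.87% to 2.77%. Symbols were matched to 51880 gene IDs (90.8%). Depth was 8414028 to 19454390 counts in genes.

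edgeR 4.0.16 in R 4.3.3 (filterByExpr, minimum count 10, TMM scaling, quasi-likelihood test, Benjamini-Hochberg threshold 0.05) tested gRNA against control within each batch, and batch 2 against batch 1 with treatment as a term. Levels are CPM on TMM-scaled library sizes. Counting intervals are exact (Clopper-Pearson, 95%). Alternatives were DESeq2 1.42.0, limma-voom (limma 3.58.1), no low-count filter, 1 fit of all libraries, single treatments and leaving out libraries.

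The 6 genes, the 17 gene lists and the rule for named genes (the 6 factors, the 2 closest followers of each, neighbours, cell type markers and the 3 largest called rises and falls of each list) were chosen with earlier results of these data known. Some further list genes are named after their values were seen. Some genes that the rule takes are not reported here. The planned P-site values were not computed. On simulated counts, the batch 2 treatment fit (15647 genes) recovered 11.9%, 40.3% and 84.8% of genes changed 1.5-fold, 2-fold and 4-fold, and the batch fit (18279 genes) 41.8%, 74.6% and 92.4%.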

Additional observations from a re-analysis of the deposited data

How the results depend on the processing

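Of the alternatives, 35 left a count of called genes within 1.5 times its value. Without a low-count filter, batch 1 gave 1 call for gRNA against control, Gm9843, named after its value was seen, and in control libraries alone 6730 genes were called between batches, from fewer libraries, against 11282 over all 12. Leaving out each library in turn gave 0 calls for treatment in either batch and 11029 to 12573 calls between batches. For the 6 factors in batch 2, leaving out 1 library gave log2 fold changes of −0.21 to 0.20 for Shox2, −0.11 to 0.12 for Lbx1, −0.20 to −0.07 for Foxd1, 0.12 to 0.43 for Gsc, −0.022 to 0.62 for Prdm6 and −0.051 to 0.11 for Barx1, and none passed. Without library 3 of both groups, Shox2 was at 0.083 and Barx1 at −0.064; Lbx1 was at −0.0018 with DESeq2 and at −0.0046 in 1 fit of all libraries. The cause of these turns was not tested. The other 104 alternatives for single genes kept their direction and side of the threshold or, for mean CPM, moved by less than 1 SD between replicates. Leaving out 1 of 3 libraries cannot move a mean by 1 SD of those 3, so these mean CPM runs could not have failed. Lbx1 was at −0.086, −0.11 and −0.042 without gRNA library 1, control library 1 and gRNA library 2, and Barx1 at −0.051 without gRNA library 3. With 3 libraries per group, 11.9% of simulated 1.5-fold changes over all genes were called in the batch 2 comparison, while the 95% intervals of Shox2, Lbx1, Foxd1 and Barx1 left out a 1.5-fold change and those of Gsc and Prdm6 did not. Alternatives planned for the footprints were not run. No paired analysis was possible because the labels number only the footprint libraries, which were not analysed here; the numbers of the RNA libraries follow the order of deposit and pair nothing.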
